A study of Mus musculus with 13 samples.

Results

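Heat shock chaperones were described here through 9 genes of the mouse olfactory bulb, taken by symbol from a deposited table of 34745 genes: Hspa1a, Hspa1b, Hspa8, Hsph1, Dnajb1, Bag3, Hsp90aa1, Hsp90ab1 and Hspb1. All 9 were found, and all 9 were among the 17467 genes that passed the filter on low counts. RNA of the olfactory bulb of wild-type C57BL/6 mice aged 7 to 8 weeks was sequenced in 13 libraries. The 3 Pmlow-1st libraries came from mice dosed at 3 mg/kg with PM2.5, the fine fraction of airborne dust, and their reference was 4 Ctrl-1st libraries of mice with no treatment. The 3 Pmhigh-2nd libraries came from mice given PM2.5 at 10 mg/kg, and their reference was 3 Ctrl-2nd libraries of mice with no treatment. Both doses carry the label "/3 day", and the sources used here give neither the route of exposure nor the meaning of 1st and 2nd. The groups are called Pmlow, Ctrl-1st, Pmhigh and Ctrl-2nd below, and a library is named by its group and replicate number.

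Chaperones of this group keep other proteins folded. HSP70 proteins bind unfolded stretches and let them go again in a cycle driven by ATP, which J-domain proteins start and nucleotide exchange factors reset. HSP90 acts later, on nearly folded clients such as kinases and steroid receptors, and small heat shock proteins hold unfolded proteins without ATP. When unfolded protein builds up, the transcription factor HSF1 binds heat shock elements, runs of the unit GAA in alternating orientation, and switches on the inducible members. In resting brain the constitutive members are abundant and the inducible HSP70 genes are low.

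In the whole series, total counts ran from 14.3 to 14.7 M in Pmlow, 13 to 14.1 M in Ctrl-1st, 20.2 to 25.5 M in Pmhigh and 15.4 to 27.0 M in Ctrl-2nd. The series is described as male mice. In CPM, which scales each count by the TMM-adjusted total of its library, the 6 libraries of the 2nd set held 0.0992 to 0.555 CPM of Xist, an X-inactivation RNA, and 177 to 230 CPM of 4 Y-linked genes together. In the 7 libraries of the 1st set Xist ran from 2245 to 2712 CPM and the Y-linked sum from 0 to 0.210 CPM. The 2nd set thus had the expression of male mice. The 1st set, Pmlow and Ctrl-1st alike, had that of female mice, which goes against the description. Dose, set and sex-linked expression therefore cannot be told apart between the sets, so Pmhigh was set against Ctrl-2nd and Pmlow against Ctrl-1st. These are bulk samples, in which fewer cells of a type and less RNA per cell cannot be told apart.

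In Pmhigh, Hspa1b, 1 of a pair of neighbouring genes for inducible HSP70, rose 4.56-fold relative to Ctrl-2nd and was the only member to pass the test (1 of 9 called, beside 0.521% of all tested genes called higher). This call was kept in only 2 of 13 fits with 1 library left out and in 4 of 11 other alternatives. Of the 9 members, 4 (Hspa1b, Hspa1a, Hspb1 and Bag3) had all 3 Pmhigh libraries above all 3 Ctrl-2nd libraries, beside 6.08% of all tested genes. The 3 most abundant members, Hspa8, Hsp90aa1 and Hsp90ab1, did not pass and had overlapping groups. In Pmlow no member passed relative to Ctrl-1st. The members were uneven within Pmhigh: replicate 2 stood below replicates 1 and 3 for 8 of 9 members.

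Hspa1a and Hspa1b lie close together on chromosome 17 and each has 1 exon. Hspa1b (ENSMUSG00000090877) spans mm10 positions 34956436 to 34959238 and Hspa1a (ENSMUSG00000091971) 34969190 to 34972156, both on the minus strand. Their longest open reading frames were identical at 1918 of 1929 aligned positions (99.4%). Of all 100-base windows of the Hspa1b transcript, 49.9% also occurred in Hspa1a. Of those of Hspa1a, 47.1% occurred in Hspa1b and 56.5% in any other gene, so reads can fall where they do not tell the genes apart. How such reads were assigned is not given in the sources used here, and the division of counts between the 2 genes is uncertain. Hspa1a also overlaps Gm20481 on the opposite strand, and the strand setting of the counting is not given. The 250 bases before the annotated start of each gene, from RefSeq (GRCm38.p6, the same build as mm10), are shown because these are the members with the largest differences and because the windows are near copies, identical at 247 of 250 positions. The lines run 5′ to 3′ on the minus strand, chr17:34959239-34959488 for Hspa1b and chr17:34972157-34972406 for Hspa1a. Capitals mark GAANNTTC, a pair of heat shock units in opposite orientation.

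Hspa1b: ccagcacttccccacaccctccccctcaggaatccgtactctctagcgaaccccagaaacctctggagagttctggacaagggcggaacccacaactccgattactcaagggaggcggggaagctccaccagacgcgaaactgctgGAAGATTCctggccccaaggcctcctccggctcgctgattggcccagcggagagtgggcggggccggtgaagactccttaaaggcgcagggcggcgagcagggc

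Hspa1a: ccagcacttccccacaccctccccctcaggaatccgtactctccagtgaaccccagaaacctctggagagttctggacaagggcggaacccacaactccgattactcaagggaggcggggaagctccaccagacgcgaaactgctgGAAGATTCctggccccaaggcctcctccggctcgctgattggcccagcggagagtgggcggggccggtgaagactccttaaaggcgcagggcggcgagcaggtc

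The motif began at position -104 from the start in both. Promoter windows (250 bases before and 50 after the start) were found for 6 of the 9 members; Hspa8, Hsp90aa1 and Hsp90ab1 had none. On either strand, GAANNTTC or TTCNNGAA, which overlap in longer runs, occurred in the windows of 5 of these 6 (Hspa1a, Hspa1b, Hspb1, Hsph1 and Bag3, but not Dnajb1), and in 15.1% of all 32851 promoter windows. Counted by gene symbol, 17% of 27025 symbols had such a window. A run of 3 units (GAANNTTC followed by NNGAA, or TTCNNGAA followed by NNTTC) occurred in Hsph1 and in 0.603% of all windows. These are matches of letters, not measured binding sites.

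Hspa1b had 16.3, 4.13 and 18.1 CPM in Pmhigh replicates 1, 2 and 3, against 2.76, 3.28 and 2.34 CPM in Ctrl-2nd replicates 1, 2 and 3. Every Pmhigh library was above every Ctrl-2nd library, but replicate 2 was nearer to the controls than to replicates 1 and 3. The log2 fold change was 2.19 (SE 0.42, 95% confidence interval 1.28 to 3.10, edgeR quasi-likelihood adjusted p = 0.0337). In all, 112 of 17467 genes (0.641%) were called at this dose, 0.12% lower.

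For Hspa1a the values were 20.3, 7.75 and 19.5 CPM in Pmhigh, against 7.30, 7.42 and 5.18 CPM in Ctrl-2nd. The groups did not overlap, with Pmhigh replicate 2 only slightly above the highest control. The log2 fold change of 1.26 (SE 0.30, interval 0.61 to 1.90) missed the threshold (edgeR adjusted p = 0.0923). Counting both genes as 1 feature gave 36.6, 11.9 and 37.6 CPM in Pmhigh against 10.1, 10.7 and 7.53 CPM in Ctrl-2nd. This removes the division of reads between the genes, but shared reads may still be missing or counted for both. The groups again did not overlap, and the log2 fold change of 1.6 (SE 0.34) was short of the threshold (edgeR adjusted p = 0.0626).

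The call of Hspa1b rested on the spread estimated over both sets and on several libraries. A fit of the 2nd set alone gave the same fold change and lost the call (edgeR adjusted p = 0.318). It was kept by edgeR without Pmhigh replicate 2 (adjusted p = 0.000423) and without Ctrl-1st replicate 4 (adjusted p = 0.0478). It was lost without Ctrl-2nd replicate 1, 2 or 3 (edgeR adjusted p = 0.0824, 0.0802 and 0.165) and without Pmhigh replicate 1 or 3 (edgeR adjusted p = 0.0800 and 0.0923). It was also lost, closer to the threshold, without Ctrl-1st replicate 1, 2 or 3 (edgeR adjusted p = 0.0515, 0.0577 and 0.0535) and without Pmlow replicate 1, 2 or 3 (edgeR adjusted p = 0.0502, 0.0516 and 0.0529). Over these 13 fits its log2 fold change stayed between 1.87 and 2.6. Without Pmhigh replicate 2, Hspa1a (1.58, edgeR adjusted p = 0.00454) and Hsph1 (0.47, edgeR adjusted p = 0.0492) passed as well.

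The share of Hspa1b in the summed counts of the 2 genes also differed among libraries. It was 44.4% (Wilson 95% interval 40.9 to 48.1), 34.8% (29.0 to 41.0) and 48.1% (45.0 to 51.3) in Pmhigh replicates 1, 2 and 3. In Ctrl-2nd replicates 1, 2 and 3 it was 27.5% (21 to 35), 30.7% (25.6 to 36.4) and 31.2% (23.6 to 39.8). The means were 42.4% ± 6.92 in Pmhigh and 29.8% ± 2.01 in Ctrl-2nd (SD, n = 3 each), without overlap, and the exact two-sided permutation p was 0.1, the smallest that this design allows. In the 1st set the shares were 33.6%, 28.0% and 19.3% in Pmlow and 28.2 to 32.3% in Ctrl-1st (exact permutation p = 0.457, smallest possible 0.0286). These intervals cover counting error only, and the shares carry the uncertainty of the shared sequence.

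**Figure D1:**
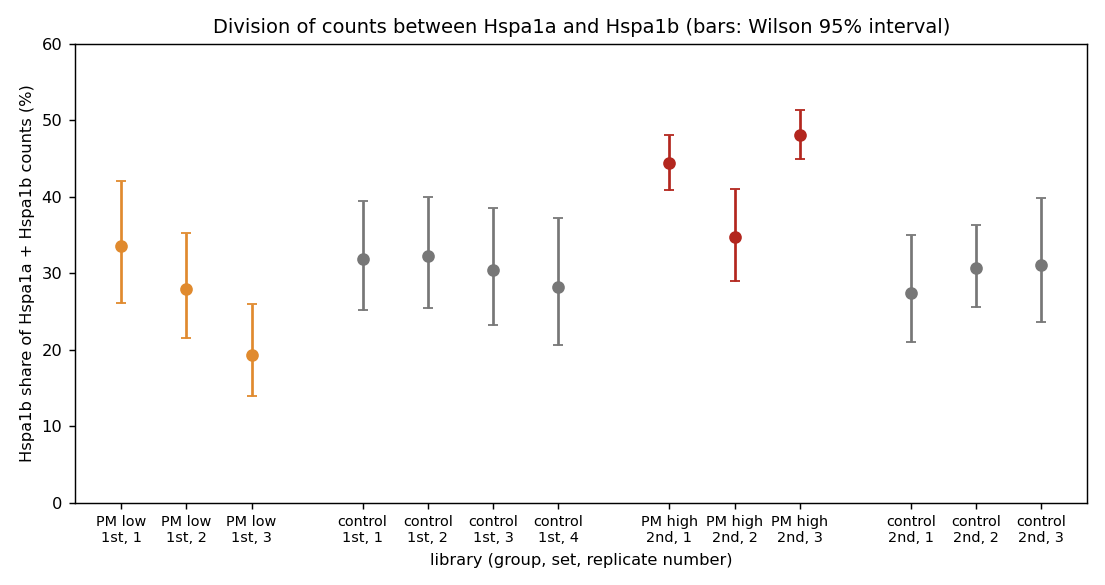
Share of Hspa1b in the summed Hspa1a and Hspa1b counts of each library (percent, with Wilson 95% intervals), by group. Pmhigh replicates 1 and 3, at 44.4% and 48.1%, are above all other libraries.

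Hspa8 encodes HSC70, the constitutive HSP70 of the cytosol, which also uncoats clathrin vesicles (ENSMUSG00000015656, chromosome 9, 40800984 to 40805200, plus strand, with 3 small nucleolar RNA genes inside it). Its levels were 1144, 1002 and 1708 CPM in Pmhigh, against 1062, 1350 and 1332 CPM in Ctrl-2nd. The groups overlapped, with Pmhigh replicate 3 the highest and Pmhigh replicate 2 the lowest of the 6. The log2 fold change was 0.04 (SE 0.16, interval -0.31 to 0.39, edgeR adjusted p = 0.981), and it turned to -0.20 without Pmhigh replicate 3 and to -0.052 without Ctrl-2nd replicate 1. The windows of its transcript were shared with other genes for 63.4%, most with Gm15459.

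Hsph1 encodes HSP105, an HSP110 protein that exchanges nucleotide on HSP70 (ENSMUSG00000029657, chromosome 5, 149614287 to 149636376, minus strand). It stood at 230.0, 149 and 269.9 CPM in Pmhigh, against 166, 189 and 186 CPM in Ctrl-2nd. Pmhigh replicates 1 and 3 were above all controls and replicate 2 was below them. The log2 fold change was 0.26 (SE 0.15, interval -0.06 to 0.59, edgeR adjusted p = 0.650). Its upstream window is shown because it is the member with a 3-unit run, which itself lies after the start and is not part of the printed bases. The line runs 5′ to 3′ on the minus strand, chr5:149636337-149636586, with capitals on TTCNNGAA at position -33.

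Hsph1: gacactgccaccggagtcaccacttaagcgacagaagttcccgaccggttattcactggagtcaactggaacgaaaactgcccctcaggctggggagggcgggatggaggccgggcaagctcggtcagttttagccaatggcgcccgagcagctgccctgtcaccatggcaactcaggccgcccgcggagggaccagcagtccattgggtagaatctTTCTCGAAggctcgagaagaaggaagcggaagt

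Dnajb1 encodes HSP40, the J-domain protein that loads clients on HSP70 and starts its ATPase (ENSMUSG00000005483, chromosome 8, 83608175 to 83611902, plus strand). The values were 65.6, 43.3 and 64.1 CPM in Pmhigh, against 44.1, 51.6 and 45.9 CPM in Ctrl-2nd. As with Hsph1, Pmhigh replicates 1 and 3 were above all controls and replicate 2 below them. Its log2 fold change was 0.29 (SE 0.13, interval 0.0033 to 0.57, edgeR adjusted p = 0.508).

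Bag3 encodes a nucleotide exchange factor that leads HSP70 clients to autophagy (ENSMUSG00000030847, chromosome 7, 128523616 to 128546981, plus strand). It stood at 14.4, 13.3 and 13.8 CPM in Pmhigh, against 11.8, 12 and 7.96 CPM in Ctrl-2nd. All Pmhigh libraries were above all controls. This gave a log2 fold change of 0.38 (SE 0.16, interval 0.04 to 0.72, edgeR adjusted p = 0.423).

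Of the HSP90 genes, Hsp90aa1 encodes the stress-inducible form (ENSMUSG00000021270, chromosome 12, 110690605 to 110702728, minus strand) and Hsp90ab1 the constitutive form (ENSMUSG00000023944, chromosome 17, 45567775 to 45573271, minus strand). Hsp90aa1 had 757, 718 and 798 CPM in Pmhigh, against 772, 879 and 444 CPM in Ctrl-2nd. The Pmhigh libraries lay inside the range of the controls, of which replicate 3 was far below the other two. Its log2 fold change was 0.12 (SE 0.17, interval -0.25 to 0.49, edgeR adjusted p = 0.921), and -0.12 without Ctrl-2nd replicate 3. Hsp90ab1 had 996, 889.6 and 1287 CPM in Pmhigh, against 872, 1106 and 875 CPM in Ctrl-2nd. The groups overlapped through Ctrl-2nd replicate 2, and the log2 fold change was 0.15 (SE 0.13, interval -0.12 to 0.43, edgeR adjusted p = 0.812). Windows of the Hsp90aa1 transcript were shared with other genes for 47.6%, most with Gm12346, and none were for Hsp90ab1.

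Hspb1 encodes a small heat shock protein that holds unfolded proteins and binds actin (ENSMUSG00000004951, chromosome 5, 135887919 to 135889563, plus strand). It had 10.9, 11.3 and 18.1 CPM in Pmhigh, against 5.46, 10.0 and 7.03 CPM in Ctrl-2nd. The groups did not overlap, although Ctrl-2nd replicate 2 came close to Pmhigh replicates 1 and 2. This was the member for which Pmhigh replicate 2 was not the lowest of its group. Its value on the log2 fold scale was 0.83 (SE 0.25, interval 0.30 to 1.36, edgeR adjusted p = 0.194). Of the windows of its transcript, 42.7% also occurred in Hsp25-ps1. Its upstream bases carry GAANNTTC at positions -117 and -97 (capitals) and are shown as the non-overlapping member with a pair of matches; the line runs 5′ to 3′ on the plus strand, chr5:135887669-135887918.

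Hspb1: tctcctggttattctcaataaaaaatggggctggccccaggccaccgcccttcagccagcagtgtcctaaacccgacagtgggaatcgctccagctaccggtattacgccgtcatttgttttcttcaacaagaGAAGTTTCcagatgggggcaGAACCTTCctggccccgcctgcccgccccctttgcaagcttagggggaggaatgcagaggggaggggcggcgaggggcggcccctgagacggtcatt

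**Figure D2:**
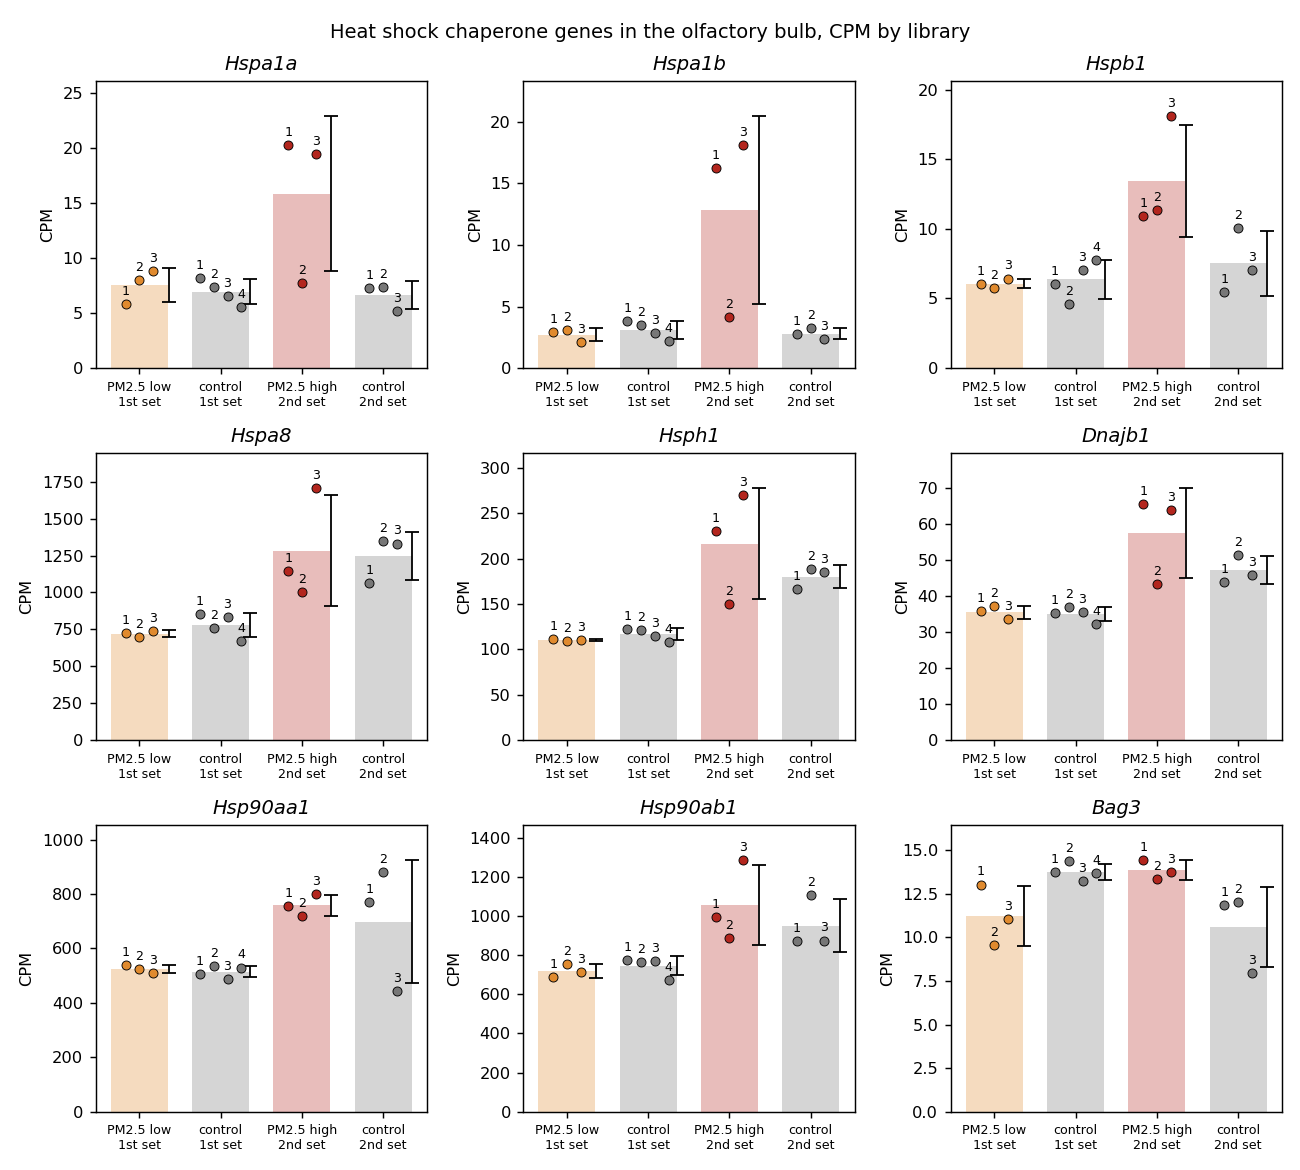
Level of each member (CPM) in every library, with bars for group means, error bars for SD and numbers for replicates. Hspa1a and Hspa1b stand out in Pmhigh replicates 1 and 3, while replicate 2 is near the controls.

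Over the members at this dose, 4 of 9 had Pmhigh entirely above Ctrl-2nd and none entirely below, beside 6.08% and 4.36% of all tested genes. All 9 log2 fold changes were above 0, beside 47.2% of all tested genes, and their median was 0.29, beside -0.012 over all tested genes. At an unadjusted p under 0.05 there were 5 of 9 (Hspa1b, Hspa1a, Hspb1, Bag3 and Dnajb1, all higher), beside 9.65% of all tested genes, or 5.75% on the higher side. The members were chosen with earlier results of these data known, and Hspa1a and Hspa1b, which share sequence, count as separate members. These counts and shares are therefore descriptions and not tests. By other tools, limma-voom and limma on log2(FPKM + 1) called 0 members, with 4 at an unadjusted p under 0.05 in each, and the DESeq2 Wald test called 2 (Hspa1a and Hspa1b).

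Relative to the mean of Ctrl-2nd, the mean log2 deviation over the 9 members was 0.68, 0.12 and 0.90 in Pmhigh replicates 1, 2 and 3, against -0.047, 0.22 and -0.18 in Ctrl-2nd replicates 1, 2 and 3. The members above the control mean numbered 8, 5 and 9 in Pmhigh, against 3, 9 and 2 in Ctrl-2nd. Pmhigh replicate 2 thus lay within the range of the controls in this mean. Their share of all counts was 0.320%, 0.279% and 0.412% in Pmhigh and 0.291%, 0.346% and 0.288% in Ctrl-2nd, which overlapped. This share is carried by the abundant members Hspa8, Hsp90aa1 and Hsp90ab1.

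**Figure D3:**
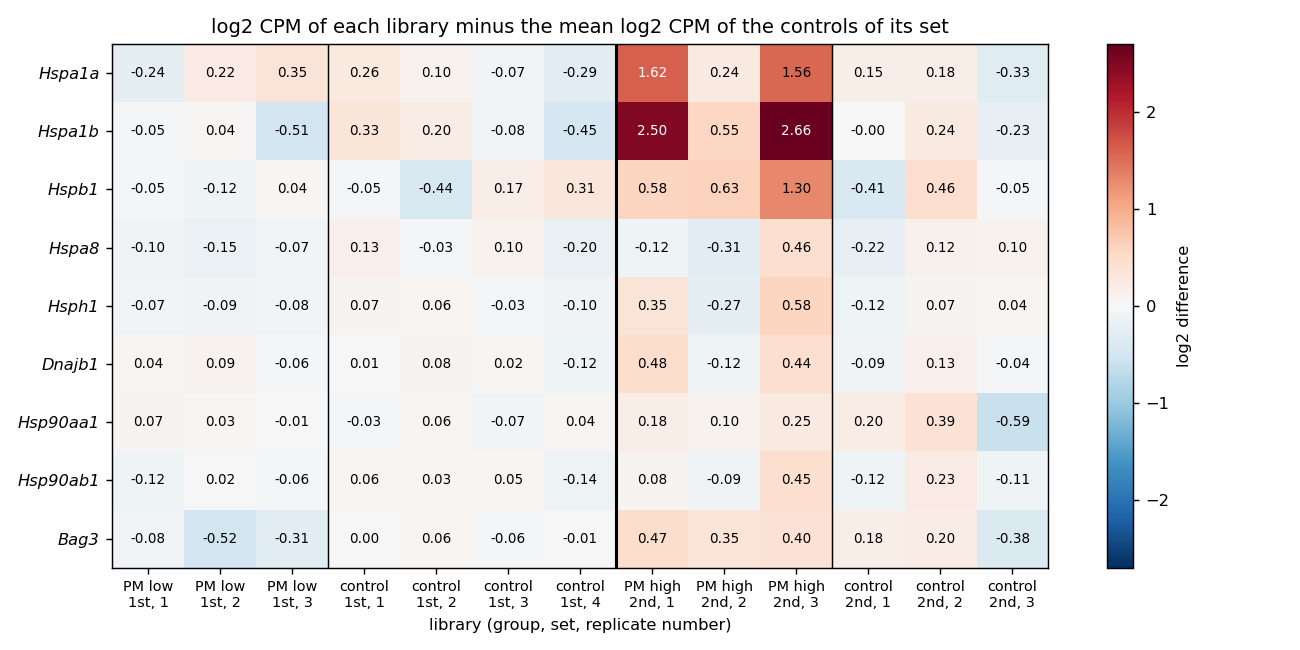
Log2 deviation of each member in each library from the mean of the controls of its set. Pmhigh replicates 1 and 3 are high for Hspa1b and Hspa1a, replicate 2 is low for Hsph1, Dnajb1 and Hspa8, and values of the 1st set run from -0.52 to 0.35.

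Markers of other cells and of activity are given beside these values. By edgeR, genes called at this dose were 1 of 2 tested in the neutrophil list, higher, and 2 of 7 in the immediate early list, lower. Of all tested genes, 0.521% were called higher and 0.12% lower. None was called in the other lists of this paragraph. The neighbouring cortex and striatum list (6 genes) summed to 18.8, 15.7 and 55.3 CPM in Pmhigh and 19.2, 20.5 and 16.5 CPM in Ctrl-2nd, so replicate 3, which was highest for 5 members, was also highest here. The red blood cell list (5 genes) summed to 114, 208 and 302 CPM in Pmhigh and 119, 99.4 and 97.2 CPM in Ctrl-2nd. The neutrophil list (5 genes, of which 2 were tested) summed to 5.26, 8.91 and 7.30 CPM in Pmhigh and 0.789, 2.09 and 1.11 CPM in Ctrl-2nd, where Camp and Ly6g were at 0 in every library. The part of these cells in the members' values was not tested. The 7 immediate early genes, induced by neuronal activity, summed to 366, 346 and 571 CPM in Pmhigh and 780, 1348 and 1253 CPM in Ctrl-2nd. The sum of that list was lower in all Pmhigh libraries, including replicate 2. Astrocyte markers (5 genes) summed to 3587 to 3860 CPM in Pmhigh and 2773 to 3617 CPM in Ctrl-2nd, and microglial markers (5 genes) to 239 to 279 CPM and 208 to 239 CPM, which nearly met. The labelled tissue was checked with 7 markers of olfactory bulb neurons, which summed to 3642 to 4019 CPM in Pmhigh and 4185 to 4769 CPM in Ctrl-2nd. This sum was lower in Pmhigh without overlap, and by gene Pmhigh was entirely below for 1 of 7. Pmhigh was also entirely below for 7 of 7 immediate early genes. It was entirely above for 3 of 5 red blood cell, 2 of 2 tested neutrophil, 2 of 5 microglial and 2 of 6 cortex and striatum genes, and for no astrocyte gene. Of all tested genes, 4.36% were entirely below and 6.08% entirely above, and no such share was computed for sums.

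At the low dose no member passed relative to Ctrl-1st. By edgeR 0 of 9 were called (0% of all tested genes were called) and 0 of 9 had an unadjusted p under 0.05 (2.46% of all tested genes did). Limma-voom, limma on log2(FPKM + 1) and DESeq2 called none, and limma on log2(FPKM + 1) had 1 at an unadjusted p under 0.05. The median log2 fold change was -0.069, beside 0.0024 over all tested genes, with 3 members above 0 (50.9% of all tested genes were) and 6 below. The 7 immediate early genes summed to 444 to 696 CPM in Pmlow and 703 to 1376 CPM in Ctrl-1st. Oligodendrocyte markers (5 genes) summed to 960.5 to 1140 CPM in Pmlow and 1158 to 1270 CPM in Ctrl-1st, and markers of olfactory bulb neurons (7 genes) to 3955 to 4133 CPM in Pmlow and 3605 to 3941 CPM in Ctrl-1st. Of all marker lists examined, these 3 had sums that did not overlap between the groups, as was so for Bag3. By gene, Pmlow was entirely below for 5 of 7 immediate early genes and 1 of 5 oligodendrocyte markers. It was entirely above for 1 of 7 neuron markers. Of all tested genes 2.91% were entirely below and 3.71% above, and no such share was computed for sums. None of the genes of these 3 lists was called by edgeR, and their part in the members' values was not tested.

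The inducible HSP70 genes stayed within the spread of the controls in Pmlow or close to it. Hspa1b had 2.94, 3.12 and 2.10 CPM in Pmlow, against 3.85, 3.52, 2.86 and 2.20 CPM in Ctrl-1st, and its log2 fold change was -0.19 (interval -1.11 to 0.73). Hspa1a had 5.81, 8.05 and 8.81 CPM in Pmlow, against 8.24, 7.39, 6.57 and 5.60 CPM in Ctrl-1st, with a log2 fold change of 0.12 (interval -0.51 to 0.75). The groups overlapped in both.

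Bag3 was the member whose groups were apart at this dose, in the opposite direction to Pmhigh. It had 13, 9.57 and 11 CPM in Pmlow, against 13.8, 14.4, 13.2 and 13.7 CPM in Ctrl-1st. Every Pmlow library was below every Ctrl-1st library, as held for 2.91% of all tested genes (3.71% had it the other way), and the log2 fold change of -0.29 (SE 0.15, interval -0.62 to 0.03) did not pass (edgeR adjusted p = 1).

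The remaining members overlapped between Pmlow and Ctrl-1st. Hspa8 had 723, 697 and 742 CPM in Pmlow, against 852, 758, 834 and 673 CPM in Ctrl-1st, and Hsph1 had 111, 109 and 110.2 CPM, against 122, 121, 114 and 108 CPM. Dnajb1 had 35.9, 37.2 and 33.6 CPM in Pmlow, against 35.3, 36.9, 35.5 and 32.2 CPM in Ctrl-1st. Their intervals ran from -0.44 to 0.22 for Hspa8, -0.39 to 0.23 for Hsph1 and -0.25 to 0.30 for Dnajb1.

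Hsp90aa1 had 540.0, 525 and 511 CPM in Pmlow, against 505, 536, 489 and 530 CPM in Ctrl-1st. Hsp90ab1 had 688, 755 and 715 CPM in Pmlow, against 777, 763, 771 and 675 CPM in Ctrl-1st. Hspb1 had 6.01, 5.76 and 6.44 CPM in Pmlow, against 6.05, 4.57, 7.06 and 7.79 CPM in Ctrl-1st. Log2 intervals were -0.32 to 0.38 for Hsp90aa1, -0.31 to 0.20 for Hsp90ab1 and -0.60 to 0.46 for Hspb1. The direction of Hspb1, Dnajb1 and Hspa1a turned when single libraries were left out, as given with the processing.

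The difference between the doses (Pmhigh relative to Ctrl-2nd, minus Pmlow relative to Ctrl-1st) was tested in the same fit. By edgeR 0 of 9 members passed, beside 0.00573% of all tested genes, and 4 of 9 had an unadjusted p under 0.05, beside 5.99% of all tested genes. Limma-voom called 0 (3 at an unadjusted p under 0.05), limma on log2(FPKM + 1) called 0 (4), and DESeq2 called 1, Hspa1b (adjusted p = 0.0457). The difference was 2.38 for Hspa1b (SE 0.60, edgeR adjusted p = 0.547), 1.13 for Hspa1a (edgeR adjusted p = 0.725), 0.90 for Hspb1 (edgeR adjusted p = 0.725) and 0.67 for Bag3 (SE 0.22, edgeR adjusted p = 0.664). The other 5 members ran from 0.09 to 0.34. Without Pmhigh replicate 2 the difference of Hspa1b passed (2.80, edgeR adjusted p = 0.0169).

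**Figure D4:**
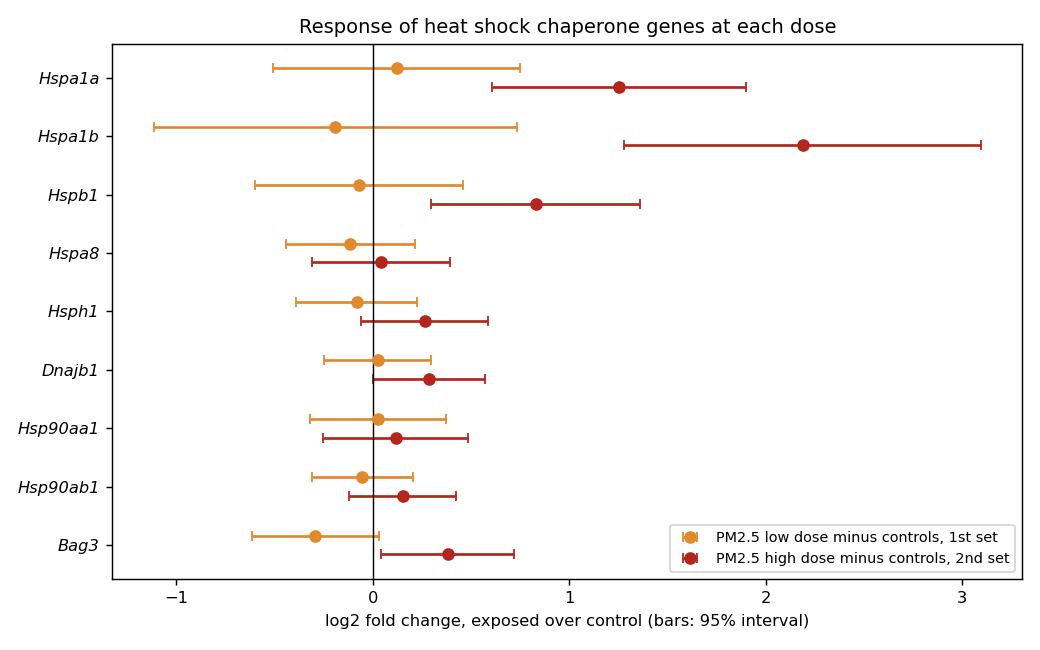
Log2 fold change with 95% interval of each member in Pmhigh relative to Ctrl-2nd and in Pmlow relative to Ctrl-1st, from the edgeR fit. Hspa1b, at 2.19 in Pmhigh, is the only called member, and every Pmlow interval includes 0.

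Some members also differed between the controls of the 2 sets. In Ctrl-2nd relative to Ctrl-1st, the log2 fold change of Hspa8, which rose, was 0.68 (SE 0.15, edgeR adjusted p = 0.00939), that of Hsph1 0.63 (SE 0.14, edgeR adjusted p = 0.00945) and that of Dnajb1 0.43 (SE 0.13, edgeR adjusted p = 0.0272). These were 3 of 9 members called higher, beside 10.5% of all tested genes, 8.74% called lower and 19.3% in either direction. Hsp90aa1 (0.44, edgeR adjusted p = 0.0688), Hsp90ab1 (0.35, edgeR adjusted p = 0.0530) and Bag3 (-0.37, edgeR adjusted p = 0.0939) were short of the threshold. Hspb1 stood at 0.25 and the inducible genes at -0.06 (Hspa1a) and -0.14 (Hspa1b). Groups did not overlap for 4 members above (Hspa8, Hsph1, Dnajb1 and Hsp90ab1, beside 15.8% of all tested genes) and for Bag3 below (beside 14.6%).

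Other settings moved calls in this comparison. With limma on log2(FPKM + 1), Dnajb1 was lost (adjusted p = 0.0512) and Bag3 passed, lower in Ctrl-2nd (-0.37, adjusted p = 0.0401). Dnajb1 was lost without Ctrl-1st replicate 1, 3 or 4 (edgeR adjusted p = 0.0591, 0.0511 and 0.0725) or Ctrl-2nd replicate 2 (edgeR adjusted p = 0.106). Hsp90ab1 passed without Ctrl-2nd replicate 1 or 3 (edgeR adjusted p = 0.0464 and 0.0412) and without Pmhigh replicate 2 or 3 (edgeR adjusted p = 0.0369 and 0.0167). Hsp90aa1 passed without Ctrl-2nd replicate 3 (0.68, edgeR adjusted p = 0.000577). The calls of Hspa8 and Hsph1 were kept in all 13 fits. Since the controls of the 2 sets also differ in sex-linked expression and depth, the sources of these differences cannot be told apart.

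Levels were compared between members on the deposited FPKM scale, which divides by a length for each gene. In Ctrl-2nd, Hspa8 had a higher mean CPM than Hsp90ab1 (1248 and 951) on a shorter transcript (2394 and 2520 bases), yet a lower FPKM. Hsph1 (180 CPM, 3802 bases) likewise stood below Dnajb1 (47.2 CPM, 2996 bases) in FPKM. The lengths used were thus not those of these transcripts, and the orders below hold for deposited FPKM only. The order of mean FPKM in Pmlow was Hsp90ab1 (126 ± 4.95 FPKM), Hsp90aa1 (81.0 ± 2.61), Hspa8 (80.4 ± 2.88), Dnajb1 (15.9 ± 0.778), Hsph1 (9.89 ± 0.141), Bag3 (4.44 ± 0.719), Hspb1 (3.35 ± 0.20), Hspa1a (2.58 ± 0.520) and Hspa1b (0.983 ± 0.195) (SD, n = 3). Hsp90aa1 and Hspa8 lay within their spread of each other. The order in Ctrl-1st was the same except that Hspa8 (87.2 ± 8.80 FPKM) stood before Hsp90aa1 (79.7 ± 3.46 FPKM), again within their spread (SD, n = 4). In Pmhigh the means of Hspb1 (7.20 ± 2.14 FPKM), Bag3 (5.31 ± 0.219), Hspa1a (5.26 ± 2.33) and Hspa1b (4.5 ± 2.66) were within their spread of each other (SD, n = 3). In Ctrl-2nd the corresponding means were 4.0 ± 1.17 for Hspb1, 4.05 ± 0.838 for Bag3, 2.19 ± 0.394 for Hspa1a and 0.976 ± 0.147 for Hspa1b (SD, n = 3). By mean FPKM Hspa1b was lowest and Hsp90ab1 highest in every group, although Hsp90ab1 and Hspa8 were within their spread of each other in Pmhigh (180 ± 34.7 and 139 ± 40.2 FPKM) and in Ctrl-2nd (161 ± 19.5 and 134 ± 16.5 FPKM). So were Hspa8 and Hsp90aa1 in Pmhigh (Hsp90aa1 at 113 ± 5.90 FPKM) and in Ctrl-2nd (104 ± 32.4 FPKM), and Dnajb1 and Hsph1 in Pmhigh (25.0 ± 5.41 and 18.8 ± 5.33 FPKM).

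The rest of the chaperone network was read through 10 lists of other genes, of which 80 genes were tested. At the high dose edgeR, limma-voom, limma on log2(FPKM + 1) and DESeq2 called 0 of 80, and by edgeR 11 had an unadjusted p under 0.05, 10 of them higher, beside 9.65% of all tested genes (5.75% higher). At the low dose edgeR called 0 of 80, with 0 at an unadjusted p under 0.05, and the other 3 tools called none. The values given below are therefore fold changes that did not pass, of genes picked by smallest p. Genes with Pmhigh entirely above Ctrl-2nd were 1 of 10 J-domain, 1 of 6 BAG and exchange factor and 1 of 14 co-chaperone genes. So were 1 of 6 heat-inducible genes and 2 of 11 endoplasmic reticulum chaperones, and none in the other lists. Entirely below was 1 of 10 J-domain genes. Of all tested genes, 6.08% were entirely above and 4.36% entirely below.

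The heat shock factors and their regulator (5 tested, 3 above 0 at the high dose) had a median log2 fold change of 0.05. Hsf1, the master factor of the heat shock response, stood at 37.8 ± 2.41 CPM in Pmhigh and 40.0 ± 7.5 CPM in Ctrl-2nd (SD, n = 3 each in this and the next lists), giving -0.08 on the log2 scale (edgeR adjusted p = 0.920). Hsf2, a related factor, stood at 0.15 (edgeR adjusted p = 0.828).

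Other cytosolic HSP70 and HSP110 genes (8 tested, 6 above 0) had a median of 0.13. Hspa12a, a distant HSP70 relative, stood at 86.6 ± 17.8 CPM in Pmhigh and 66.2 ± 6.83 CPM in Ctrl-2nd (log2 fold change 0.39, edgeR adjusted p = 0.259). Hspa1l, the germ-line HSP70 gene that lies next to Hspa1a on the opposite strand, stood at 1.90 ± 0.995 CPM in Pmhigh and 0.935 ± 0.296 CPM in Ctrl-2nd (log2 fold change 0.99, edgeR adjusted p = 0.427). Both had overlapping groups, and Hspa1l overlaps Gm10501 on the opposite strand.

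Other J-domain genes (10 tested, 4 above 0) had a median of -0.04. Dnajb4, another partner of HSP70, stood at 48.2 ± 13.9 CPM in Pmhigh and 22.3 ± 3.43 CPM in Ctrl-2nd, without overlap (log2 fold change 1.11, SE 0.39, edgeR adjusted p = 0.338). In the 1st set the same gene stood at 25.5 ± 10.2 CPM in Pmlow and 31.1 ± 14.3 CPM in Ctrl-1st (SD, n = 3 and 4). Dnajb5 was lower in all Pmhigh libraries, at 215.6 ± 6.11 CPM against 263 ± 37.2 CPM in Ctrl-2nd (log2 fold change -0.29, edgeR adjusted p = 0.286).

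Other BAG proteins and exchange factors (6 tested, 3 above 0) had a median of 0.01. Bag2, an inhibitor of the ubiquitin ligase CHIP, stood at 5.93 ± 0.478 CPM in Pmhigh and 3.25 ± 0.483 CPM in Ctrl-2nd, without overlap (log2 fold change 0.86, SE 0.24, edgeR adjusted p = 0.163). It overlaps Gm37905 on the opposite strand. Bag5 stood at -0.08 (edgeR adjusted p = 0.888).

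Co-chaperones of HSP90 and HSP70 (14 tested, 8 above 0) had a median of 0.06. Ahsa2, a relative of the HSP90 activator Aha1, stood at 27.9 ± 3.32 CPM in Pmhigh and 18.2 ± 2.81 CPM in Ctrl-2nd, without overlap (log2 fold change 0.62, SE 0.17, edgeR adjusted p = 0.152), and it overlaps Usp34 on the opposite strand. Chordc1, an HSP90 co-chaperone, stood at 0.22 (edgeR adjusted p = 0.574).

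Of 7 other small heat shock genes 4 were tested (3 above 0, median 0.28). Hspb8, the partner of Bag3 in autophagy, stood at 9.24 ± 3.47 CPM in Pmhigh and 5.72 ± 0.504 CPM in Ctrl-2nd, with overlap (log2 fold change 0.69, edgeR adjusted p = 0.286). Cryab, the lens and glial alpha B crystallin, stood at 0.25 (edgeR adjusted p = 0.809). Hspb2, Hspb7 and Cryaa had too few counts to be tested.

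Other heat-inducible genes (6 tested, 5 above 0) had a median of 0.12. Dedd2 stood at 31.7 ± 4.34 CPM in Pmhigh and 24.5 ± 2.55 CPM in Ctrl-2nd, without overlap (log2 fold change 0.37, edgeR adjusted p = 0.367), and Serpinh1, a collagen chaperone, stood at 0.22 (edgeR adjusted p = 0.894). Endoplasmic reticulum chaperones (11 tested, 10 above 0) had a median of 0.15. Pdia4, a disulfide isomerase, stood at 81.9 ± 16.1 CPM in Pmhigh and 59.4 ± 3.36 CPM in Ctrl-2nd, without overlap (log2 fold change 0.46, SE 0.13, edgeR adjusted p = 0.164). Dnajc3, an inhibitor of eIF2alpha kinases, stood at 81.4 ± 6.07 CPM in Pmhigh and 63.9 ± 10.2 CPM in Ctrl-2nd, without overlap (log2 fold change 0.35, edgeR adjusted p = 0.206).

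Mitochondrial chaperones and proteases (8 tested, 2 above 0) had a median of -0.03. Hspa9, mitochondrial HSP70, stood at -0.13 and Hspd1, the mitochondrial chaperonin HSP60, at 0.13 (edgeR adjusted p = 0.773 for each). The TRiC chaperonin, which folds actin and tubulin (8 tested, 2 above 0), had a median of -0.02, with Cct6a at -0.15 (edgeR adjusted p = 0.706) and Tcp1 at -0.08 (edgeR adjusted p = 0.900). Between the controls of the sets these lists differed more: in Ctrl-2nd relative to Ctrl-1st, edgeR called 41 of the 80 genes higher and none lower, beside 10.5% and 8.74% of all tested genes. Among them were all 8 TRiC subunits, 8 of 11 endoplasmic reticulum chaperones, 8 of 14 co-chaperones and 5 of 8 mitochondrial genes.

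**Figure D5:**
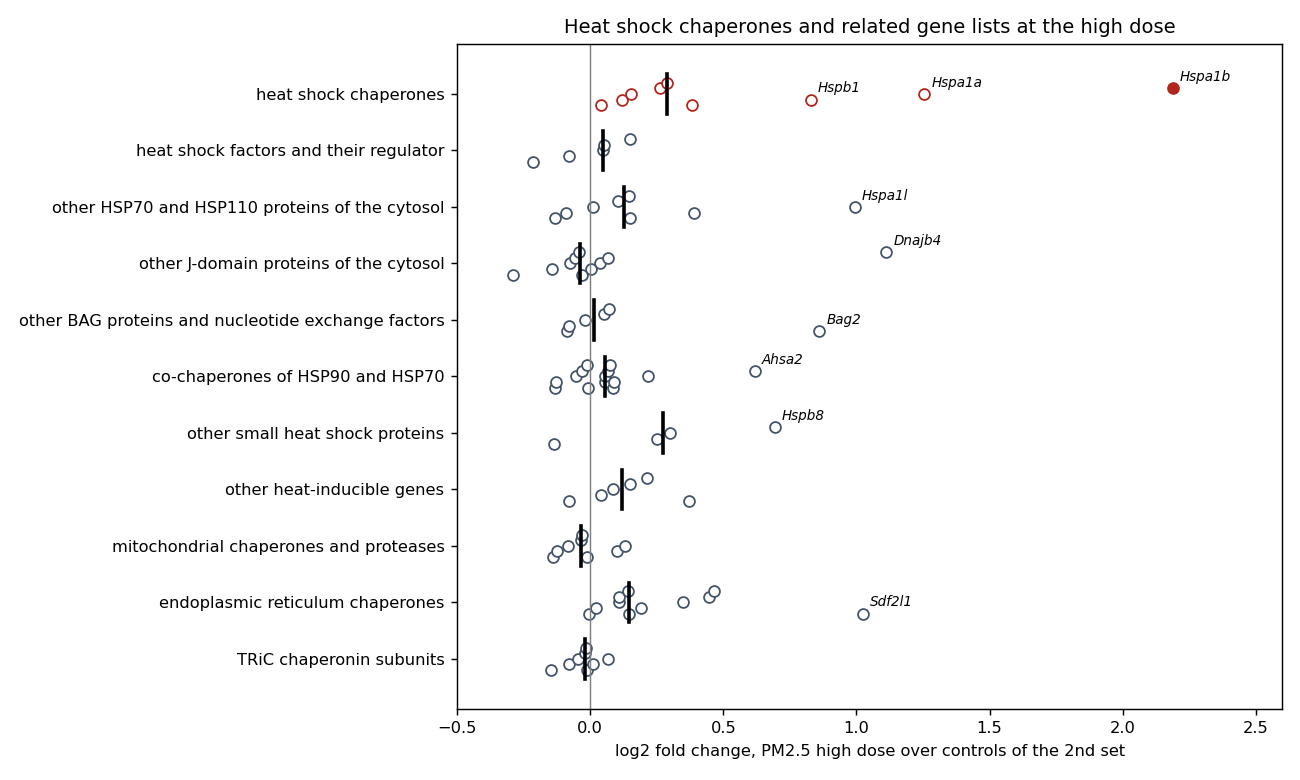
Log2 fold change at the high dose (Pmhigh relative to Ctrl-2nd) for every tested gene of the members and of the 10 chaperone lists, with list medians. The member medians and those of all lists lie between -0.04 and 0.29, and no listed gene outside the members passed the test.

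Of 11656 candidate genes outside the members, those whose level followed the mean log2 CPM of the members most closely over the 13 libraries, each centred on its set, were Manf (Pearson r 0.961), Ddit4 (0.945), Sst (0.913), Sgk1 (0.902), Sdf2l1 (0.893) and Dclk3 (0.888). These r values are descriptions across libraries that share a design. Centring on the set keeps the difference between exposed and control libraries, so higher values of these genes at the high dose follow in part from how they were picked. The mean of the members was itself highest above the controls in Pmhigh replicates 1 and 3 (0.68 and 0.90). Their log2 fold changes at the high dose were 0.47, 0.52, 1.19, 1.20, 1.02 and 0.51, of which none passed (lowest edgeR adjusted p = 0.0692, for Sgk1). Spearman's rho was 0.890, 0.769, 0.885, 0.802, 0.879 and 0.896 in the same order.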

How the data were processed

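Per the labels' protocols, strand-specific libraries were made from total RNA. HISAT2 and mm10 are named in the submitters' processing notes. The counting program, its strand setting and its handling of reads that match several genes were not stated. The authors deposited raw counts and FPKM for each gene and library. Counts were analysed with edgeR 4.0.16 in R 4.3.3 (TMM, filterByExpr with a minimum of 10 counts, robust quasi-likelihood test), with 4 groups and 13 libraries fitted jointly (9 residual degrees of freedom), adjusted by Benjamini-Hochberg over 17467 genes and called at 0.05. Fold changes for alternatives with the deposited FPKM used log2(FPKM + 1) in limma 3.58.1, and DESeq2 1.42.0 was run beside it. SE was derived from F and the fold change. Coordinates of 34344 of 34745 genes were matched by identifier to GENCODE M21, 27776 of them identical. No pair of libraries of a group agreed within sampling noise (chi-square per gene 5.97 or more). This value ran from 5.97 to 9.84 in the 1st set and from 13.5 to 45.5 in the 2nd, and it also grows with depth. The joint fit shares its estimate of spread between these unlike sets, so its p-values at the high dose may be too small. Nothing in the labels says how replicates were drawn, and p-values then cover only the spread between samples, which may be technical. Every member was named, and of each list the 2 genes with the smallest p at the high dose. The members and lists were chosen with earlier results of these data known. The fit was tested on simulated data with the same spread for a gene in all libraries. That test therefore could not show what the unlike spread of the sets does to the p-values.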

Additional observations from a re-analysis of the deposited data

Results flagged for a closer look

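Hsp90ab1 in Ctrl-1st had 1 library far from the others. Replicate 4 stood at 675 CPM and the other 3 between 763 and 777 CPM, a gap of 0.864 of the range of the 4, above Dixon's critical value. Of 21 groups of 4 values examined this way, chance gives about 1 in 20.

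Bag3 lay on opposite sides of the controls at the doses, and neither comparison passed (edgeR adjusted p = 0.423 at the high dose and 1 at the low dose). Every Pmlow library was below every Ctrl-1st library and every Pmhigh library was above every Ctrl-2nd library. The difference of 0.67 on the log2 scale (SE 0.22) was tested and did not pass (edgeR adjusted p = 0.664).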

How the results depend on the processing

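Of 809 values computed for single members under the alternatives, 749 kept their direction and their side of the threshold, 25 lost a call, 17 gained one and 18 turned sign. The 749 include values that were called neither in the main fit nor in the alternative, so they say little about the calls. The call of Hspa1b at the high dose was kept in 2 of 13 fits with 1 library left out and in 4 of 11 other alternatives. That of Dnajb1 between the controls was kept in 9 of 13 and in 5 of 8. The number of members called at the high dose, 1 in the main fit, was 0 with limma-voom, limma on log2(FPKM + 1), limma on log2(FPKM + 0.1), separate fits of each set and with the deepest library of Pmhigh and of Ctrl-2nd left out together (chosen after the data were seen), 2 with DESeq2, and 0 to 3 with 1 library left out. At the low dose it was 0 throughout. For the difference it was 1 with DESeq2 and 0 to 1 with 1 library left out. Between the controls, 3 in the main fit, it was 5 with no filter on low counts, 5 with DESeq2, 4 with DESeq2 size factors, 2 without the deepest libraries (Dnajb1 lost, adjusted p = 0.0699), 3 with log2(FPKM + 0.1) (Dnajb1 lost, adjusted p = 0.0509, and Bag3 gained, adjusted p = 0.0419), and 2 to 5 with 1 library left out. The call of Hspa1b at the high dose was lost with limma-voom (1.95, adjusted p = 0.212), log2(FPKM + 1) (1.32, adjusted p = 0.104), separate fits (2.19, adjusted p = 0.318) and the summed feature (1.6, adjusted p = 0.0626). The genes called at the high dose, 112, were 73 with at least 1 CPM in every library, 291 with DESeq2, 4 in separate fits and 21 to 138 with 1 library left out. At the low dose, 0 in the main fit, they were 1 with at least 1 CPM, 2 with limma-voom, 2 with log2(FPKM + 1), 19 with DESeq2, 9 in separate fits, 1 without the deepest libraries and 0 to 2 with 1 library left out. For the difference, 1 in the main fit, they were 2 with no filter, 0 with limma-voom, 0 with log2(FPKM + 1), 17 with DESeq2 and 0 to 6 with 1 library left out, and between the controls 1340 to 4073 with 1 library left out.

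Values that turned sign were small. Without the deepest libraries these were Hspa8 at the high dose (-0.17) and in the difference (-0.050) and Hspb1 between the controls (-0.011), and in the summed feature Hspa1b at the low dose (0.032). With 1 library left out, ranges were -0.012 to 0.28 for Hspa1a, -0.20 to 0.043 for Hspb1 and -0.013 to 0.056 for Dnajb1 at the low dose, -0.20 to 0.19 for Hspa8 and -0.12 to 0.30 for Hsp90aa1 at the high dose, -0.089 to 0.30 for Hspa8 and -0.15 to 0.27 for Hsp90aa1 in the difference, and -0.16 to 0.087 for Hspa1a and -0.019 to 0.40 for Hspb1 between the controls. The cause was not tested. Separate fits give neither the difference nor the comparison of controls.

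The labels do not say whether replicate numbers pair the samples. Correlations of same-numbered deviations were 0.0042, 0.0583 and 0.0117 in the 1st set and 0.134, -0.151 and -0.341 in the 2nd. Differently numbered libraries of the 2nd set ran from -0.377 (Pmhigh replicate 1 with Ctrl-2nd replicate 2) to 0.455 (Pmhigh replicate 3 with Ctrl-2nd replicate 2). These values show no pairing by number, but so few libraries cannot settle it. With the replicate block, 5 genes were called at the high dose, 0 members (Hspa1b 1.96, adjusted p = 0.272) and 0 genes in the difference, and the low-dose values of Hspb1 (0.059) and Dnajb1 (-0.013) turned sign. The block could not give the comparison of controls. The depth of 13 to 27.0 M counts limits the precision of low genes such as Hspa1b, which ran from 2.10 to 18.1 CPM over the 13 libraries.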
